A study of Mus musculus with 2 samples.

Results

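CD11c-transcript-positive microglia are microglia of the inflamed central nervous system in which at least 1 RNA molecule of Itgax, the gene of CD11c, was counted. A barcode was kept with 500 or more genes, 1000 or more UMIs of genes (unique molecular identifiers, each standing for 1 counted RNA molecule) and under 10% mitochondrial UMIs. It was called a microglial cell with a UMI in 3 or more of the 9 genes P2ry12, Tmem119, Sparc, Olfml3, Gpr34, Sall1, P2ry13, Slc2a5 and Crybb1, and with no UMI of Top2a, Mki67 or Cd3e. Of 25603 kept cells, 10222 were microglia by this gate, and 1356 of these had 1 or more Itgax UMIs. They were 568 of 5886 microglia in Stat4fl/flCD11cCre and 788 of 4336 in WT. The remaining 5318 and 3548 microglia, with 0 Itgax UMIs, are called Itgax-negative.

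Both genotypes were C57BL/6 mice with experimental autoimmune encephalomyelitis (EAE), induced with a MOG myelin peptide in complete Freund's adjuvant (CFA) and pertussis toxin (PTX), and cells were taken on day 15 after immunization. In Stat4fl/flCD11cCre mice the floxed Stat4 gene is open to deletion by a Cre recombinase under the CD11c promoter, so the cells described here are among those in which the Cre can be made, while WT mice are labelled with neither allele. CNS mononuclear cells of each genotype were pooled, sorted for surface MHC class II and CD11c, and put through 10x Genomics 3' single-cell RNA sequencing as 1 library per genotype, with 5 antibody tags counted in the same droplets. With 1 library each, no difference below has a replicate check and no test across samples was possible. All intervals are at the 95% level and cover counting error only. The members were chosen on RNA counts of the same cells, so every comparison with Itgax-negative microglia is a description.

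CD11c is the alpha X integrin chain and pairs with the beta chain CD18 (Itgb2) to form complement receptor 4, which binds fragments of complement C3 and fibrinogen. Microglia, the resident macrophages of the brain, carry little CD11c at rest, and CD11c-bearing microglia are known in mice from developing white matter, demyelination, ageing and models of neurodegeneration. There they are described with the genes of the disease-associated state, among them Cst7, Lpl, Spp1, Axl, Csf1, Apoe and Igf1.

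The 300 bases around the start of 2 genes are shown because the results turn on them. Itgax is the gene that defines these cells, and its promoter region is the kind that drives the Cre (the fragment used in the strain is not given in the sources used here). Cst7 was higher in Itgax-positive than in Itgax-negative microglia of both libraries at each depth compared below. The sequences are from RefSeq on GRCm38.p6, the assembly also known as mm10, from 250 bases before to 50 after the start, at chr7:128129300-128129599 (plus strand) for Itgax and chr2:150570165-150570464 (plus strand) for Cst7. Capitals mark the letters of the AP-1 motif TGANTCA, which reads the same on both strands.
Itgax: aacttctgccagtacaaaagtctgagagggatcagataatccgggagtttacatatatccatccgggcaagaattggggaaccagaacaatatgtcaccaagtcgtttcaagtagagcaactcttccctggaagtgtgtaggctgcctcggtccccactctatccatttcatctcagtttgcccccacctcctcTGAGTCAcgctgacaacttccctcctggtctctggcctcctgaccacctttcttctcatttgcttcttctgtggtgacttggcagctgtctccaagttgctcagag
Cst7: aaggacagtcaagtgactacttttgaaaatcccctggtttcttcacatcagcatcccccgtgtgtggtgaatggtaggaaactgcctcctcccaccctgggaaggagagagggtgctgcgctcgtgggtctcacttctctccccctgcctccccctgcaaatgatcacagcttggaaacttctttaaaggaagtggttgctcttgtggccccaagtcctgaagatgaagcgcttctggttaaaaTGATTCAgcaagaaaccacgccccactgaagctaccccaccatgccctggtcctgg
Each window held the AP-1 letters once, as did at least once 7.81% of 32851 RefSeq windows of the same length. The letters GAGGAA of a PU.1-type core, searched on both strands, were in neither window and in 28.3% of all windows. Other spellings of such a core were not searched. A match is a description of letters and not a bound site.

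Most Itgax-positive cells also carried microglial genes that the gate did not use. Cx3cr1, the fractalkine receptor, had a UMI in 99.3% of the Itgax-positive cells of Stat4fl/flCD11cCre and in 99.1% of those of WT, and Siglech, a sialic acid-binding lectin, in 95.8% and 89.6%. Of the markers used in the gate, Sparc was found in 97.9% and 98.1%, Olfml3 in 98.1% and 93.8%, and Tmem119 in 95.2% and 91.8%. The 12 microglial genes listed outside the gate summed to 11433 CPM in Itgax-positive against 17952 in Itgax-negative cells of Stat4fl/flCD11cCre. In WT they summed to 8651 against 12021 CPM. Genes of other myeloid cells were found as well. All 10 conventional dendritic cell markers were found in both libraries, at 184 and 134 CPM in sum (CPM, a gene's UMIs scaled to the same total in each group of cells), and 2 or more of them in 23.4% of Itgax-positive against 5.45% of Itgax-negative cells in Stat4fl/flCD11cCre and in 19.7% against 5.16% in WT. Of 8 border macrophage markers 8 and 7 were found (Lyve1 was at 0 in WT), at 227 and 176 CPM in sum, and 2 or more in 25% against 5.58% and in 21.1% against 8.15%. All 5 plasmacytoid dendritic cell markers were found in both libraries, and 2 or more in 5.63% against 1.37% and in 8.63% against 1.97%. The part of these other cell types in the results was not tested.

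These cells were also much deeper than other microglia, which bears on each comparison. In Stat4fl/flCD11cCre the median was 15017 UMIs in Itgax-positive and 5344 in Itgax-negative cells, and in WT it was 13179.5 and 5075. A deep cell has more chances to show an Itgax UMI, and it can also be a droplet with more than 1 cell. Of the Itgax-positive cells 37.3% were in the 10% of their library with the highest Scrublet doublet score, against 8.86% of the Itgax-negative cells in Stat4fl/flCD11cCre, and 22.5% against 8.85% in WT. A UMI in 2 or more genes of any other cell type's list was found in 85.4% of Itgax-positive against 51.7% of Itgax-negative cells in Stat4fl/flCD11cCre, and in 85.9% against 56.3% in WT. All 10 monocyte and macrophage markers were found in the Itgax-positive cells of both libraries. Their summed level was 3642 CPM in Itgax-positive and 1877 in Itgax-negative cells of Stat4fl/flCD11cCre (0 to 745.5 UMIs per 10000 in single Itgax-positive cells), and 4211 and 3095 CPM in WT (0 to 192.6). How far mixed droplets enter the values was not tested. Each comparison is therefore given in 3 ways: over all cells, over all cells with the Itgax-negative cells reweighted to the depth of the Itgax-positive ones in 10 bins, and over cells of 2500 to 10000 UMIs with the same reweighting in 5 bins, a range chosen after the deep cells were seen to hold markers of other types. That range held 166 and 279 Itgax-positive cells (median 6575 and 6577 UMIs) in Stat4fl/flCD11cCre and WT, and 4087 and 2451 Itgax-negative cells (median 4903 and 4489). There the top doublet scores took 12% of Itgax-positive against 2.67% of Itgax-negative cells in Stat4fl/flCD11cCre and 8.60% against 4.08% in WT. The summed monocyte and macrophage markers were at 480.5 against 243 CPM and at 1703 against 1186 CPM in the same order.

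The share of microglia with an Itgax UMI was lower in Stat4fl/flCD11cCre. Without correction for depth it was 9.65% (exact interval 8.91 to 10.4) in Stat4fl/flCD11cCre and 18.2% (17.0 to 19.4) in WT. After each cell was thinned to 2500 UMIs, which left out 219 and 312 shallower cells, it was 2.91% (2.49 to 3.38, 165 of 5667 cells) in Stat4fl/flCD11cCre and 5.67% (4.97 to 6.43, 228 of 4024) in WT, a ratio of 0.514 (0.422 to 0.625). For cells of 2500 to 10000 UMIs the thinned shares were 1.81% and 5.16%, a ratio of 0.351. In cells of 10000 or more UMIs the one thinning drawn gave 6.22% and 6.72%, a ratio of 0.926 (0.695 to 1.23), while the share expected over all draws was 5.98% in Stat4fl/flCD11cCre and 7.88% in WT. Without thinning, 28.4% (26.0 to 30.8) of these deep cells had an Itgax UMI in Stat4fl/flCD11cCre and 38.6% (36.0 to 41.4) in WT, and the levels were 28.0 CPM (26.0 to 30.0) and 34.8 CPM (32.5 to 37.2). Stat4fl/flCD11cCre was thus below WT in both ranges of depth, and of these values the intervals overlapped in the thinned draw of the deep cells alone. These are shares among cells sorted on surface MHC class II and CD11c. None of the 5 tags was for CD11c, so Itgax-negative cells may carry the protein. A difference between libraries in free RNA, pools or sorting cannot be told apart from one of genotype.

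Cells that should lack Itgax give the background of free RNA. Choroid plexus epithelial cells had a thinned share of 0 of 85 cells in Stat4fl/flCD11cCre, which allows up to 3.53%, and 0.741% (1 of 135) in WT, and B cells 0 of 41 (up to 7.32%) and 0 of 56 (up to 5.36%). The thinned share of Stat4fl/flCD11cCre microglia therefore lies within what the counts of both background classes allow in that library. In WT the thinned share of microglia, 5.67% (4.97 to 6.43), was above the choroid plexus interval (up to 4.06%). Its interval included the B cell limit. By level, Itgax was at 19.8 CPM (18.6 to 21.0) in microglia of Stat4fl/flCD11cCre and 31.4 CPM (29.7 to 33.2) in those of WT, against 1.32 (0.0334 to 7.34) and 4.64 (1.51 to 10.8) in choroid plexus cells, so the level over microglia of all depths was above that background in both. In microglia of 2500 to 5000 UMIs it was 4.56 CPM (3.24 to 6.24) in Stat4fl/flCD11cCre, inside the choroid plexus interval. In WT it was 18.7 CPM (15.3 to 22.7) there, above the choroid plexus interval of WT. B cells had 0 Itgax UMIs in Stat4fl/flCD11cCre (up to 6.32 CPM) and 3.35 CPM (0.0849 to 18.7) in WT. The intervals of these shallow microglia therefore overlapped the B cell range in both libraries. Conventional dendritic cells, which carry CD11c as a defining marker, had 94.2 and 58.1 CPM of Itgax and NK cells 81.8 and 71.5. Monocytes or macrophages (28.8 and 32.7 CPM), neutrophils (24.3 and 18.9) and T cells (15.2 and 20.8) were nearer to the microglia.

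Itgax also went with depth at the level of CPM, which a deeper count alone does not change. In microglia of 2500 to 5000, 5000 to 10000, 10000 to 20000 and 20000 or more UMIs it was 4.56, 13.5, 25 and 30.7 CPM in Stat4fl/flCD11cCre and 18.7, 31.4, 34.0 and 35.6 CPM in WT. In the first of these bins 1.74% and 5.57% of cells had an Itgax UMI, and in the last 42.0% and 53.2%. The macrophage gene Arg1 also went up over these bins, as given with the levels by depth.

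**Figure D1:**
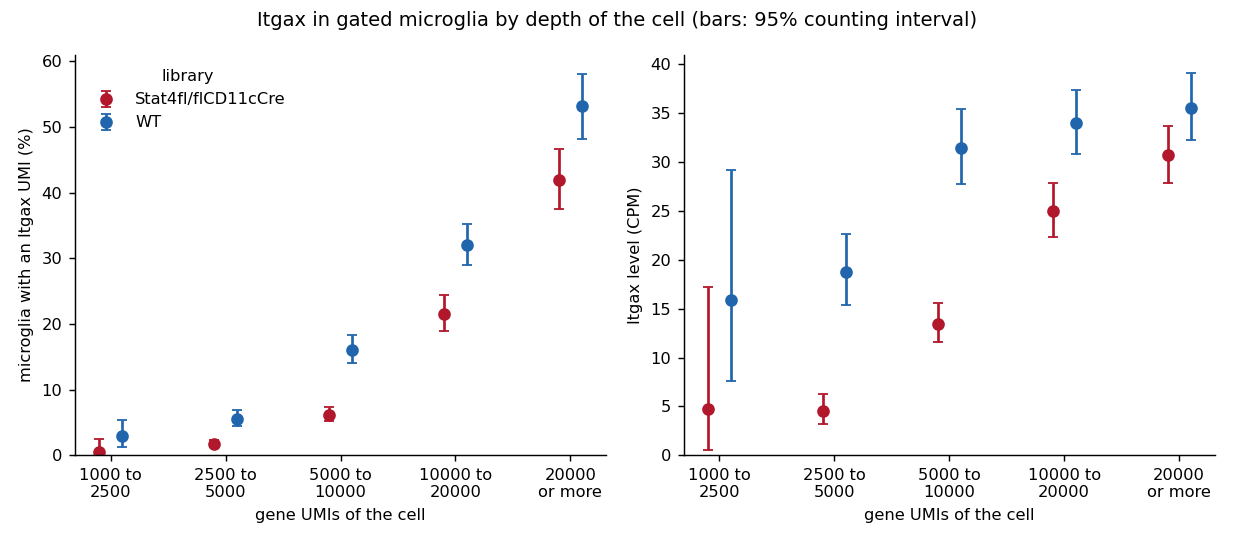
Left, the share of gated microglia with 1 or more Itgax UMIs (%), and right, the Itgax level (CPM), against the gene UMIs of the cell, in Stat4fl/flCD11cCre (red) and WT (blue); points are values and bars 95% counting intervals (exact binomial, exact Poisson). Both measures are higher in deeper cells in both libraries, from 4.56 CPM at 2500 to 5000 UMIs to 30.7 at 20000 or more in Stat4fl/flCD11cCre, and the CPM of the 2 libraries lie closest together in the deepest cells.

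Over all cells, Itgax-positive microglia had higher levels of inflammatory macrophage genes and lower levels of several resting microglial genes than Itgax-negative ones. A gene is called higher or lower when the ratio of CPM is past 1.5-fold and its counting interval excludes 1, among genes with a mean of 25 CPM or more and 50 or more UMIs. In Stat4fl/flCD11cCre 335 of 5998 genes were called higher (5.59%) and 244 lower (4.07%), and in WT 86 of 5747 were higher (1.5%) and 64 lower (1.11%). Of 66 higher calls in WT among genes considered in both libraries, 64 were also called in Stat4fl/flCD11cCre, which is 97.0% of the WT calls and 19.3% of the 332 calls of Stat4fl/flCD11cCre. With the Itgax-negative cells matched in depth, 26 of 5950 genes remained called higher (0.437%) and 18 lower (0.303%) in Stat4fl/flCD11cCre, and 12 of 5690 higher (0.211%) and 13 lower (0.228%) in WT. Of the higher calls over all cells 23 of 335 and 10 of 86 were kept, so most of these genes were not called against Itgax-negative cells of the same depth. Among cells of 2500 to 10000 UMIs 228 of 6032 genes were higher (3.78%) and 149 lower (2.47%) in Stat4fl/flCD11cCre, and 48 of 5751 higher (0.835%) and 116 lower (2.02%) in WT. The libraries shared fewer calls there. Among genes considered in both, 14 higher calls were shared, of 206 in Stat4fl/flCD11cCre and 26 in WT. Of the 206, 123 had the same sign in WT and 10 were called lower there. Of the lower calls 22 were shared, of 121 and 105. Matched in depth over all cells, 5 higher calls were shared, of 24 and 8. Over all tested genes the median log2 ratio was -0.11 and -0.04 pooled, -0.04 and -0.00 depth-matched and -0.04 and -0.06 in the middle range, in Stat4fl/flCD11cCre and WT.

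Cst7, which encodes cystatin F, an inhibitor of lysosomal cathepsins, was the one disease-associated gene called higher in both libraries when the cells of all depths were matched in depth. Its level was 54.3 CPM in Itgax-positive against 21.9 in depth-matched Itgax-negative cells of Stat4fl/flCD11cCre, a log2 ratio of 1.31 (1.12 to 1.5), and 96.3 against 61.5 CPM in WT, a log2 ratio of 0.65 (0.52 to 0.78). Within the range of 2500 to 10000 UMIs it was 109 against 29.9 CPM (log2 1.86, 1.56 to 2.16) and 188 against 84.5 CPM (log2 1.16, 0.97 to 1.34). Without thinning, a Cst7 UMI was found in 28.9% of Itgax-positive against 8.22% of Itgax-negative cells of that range in Stat4fl/flCD11cCre, and in 47.0% against 21.3% in WT. The Itgax-positive cells were the deeper there (medians 6575 against 4903 and 6577 against 4489 UMIs), so depth enters these shares. After thinning to 2500 UMIs the shares over all depths were 11.5% against 4.78% and 22.2% against 13.3%. The log2 ratio was positive in each of the 4 depth bins of both libraries, at 2.19, 2.0, 1.60 and 0.88 from the shallowest to the deepest in Stat4fl/flCD11cCre and 1.26, 1.09, 0.73 and 0.39 in WT. Itgax-negative cells of Stat4fl/flCD11cCre had 17.3, 28.5, 22.7 and 20.7 CPM of Cst7 over these bins, with no steady rise with depth. At 2500 to 10000 UMIs the summed NK cell markers were at 199 against 18.6 CPM in Stat4fl/flCD11cCre and 3.33 against 22.8 CPM in WT. Their part in the Cst7 values was not tested.

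Of the 23 disease-associated genes in the files 20 passed the filter on low values in the depth-matched comparison of each library. In that comparison 3 were higher in Stat4fl/flCD11cCre (Cst7, Spp1 and Gpnmb) and 1 in WT (Cst7), none was lower in either, and the median log2 ratios were 0.24 and 0.14. Within the middle range of depth 11 of 20 were higher in Stat4fl/flCD11cCre (median 0.65) and 5 of 20 in WT (median 0.31). Of all tested genes of that range 3.78% and 0.835% were called higher. Lpl, the lipoprotein lipase, was at 52.2 against 15.7 CPM there in Stat4fl/flCD11cCre (log2 1.73, with 24.6% of the Itgax-positive UMIs in 1 cell) and at 40.0 against 21.4 CPM in WT (log2 0.90). Axl, a receptor for the bridging molecule GAS6, was at 49.4 against 20.4 CPM (log2 1.27) and 108 against 69.0 CPM (log2 0.65). Csf1, a growth factor of microglia, was at 120 against 54.1 CPM (log2 1.15) in Stat4fl/flCD11cCre and at 103 against 93.3 CPM (log2 0.14, not called) in WT. Spp1, osteopontin, was at 89.7 against 26.4 CPM (log2 1.76) in Stat4fl/flCD11cCre, but 48.0% of those Itgax-positive UMIs came from 1 cell, and in WT it was at 107 against 102 CPM (log2 0.08). Apoe, the lipid carrier apolipoprotein E, had depth-matched log2 ratios of 0.15 and -0.24, and Gpnmb 0.62 and -0.53, so neither kept its sign between the libraries. The UMIs of Igf1, a growth factor linked with CD11c-bearing microglia in mice, gave 5.87 and 4.82 CPM in Itgax-positive cells of Stat4fl/flCD11cCre and WT, under the filter on low values. Trem2, the lipid-sensing receptor of the disease-associated state, had depth-matched log2 ratios of -0.08 and -0.02.

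**Figure D2:**
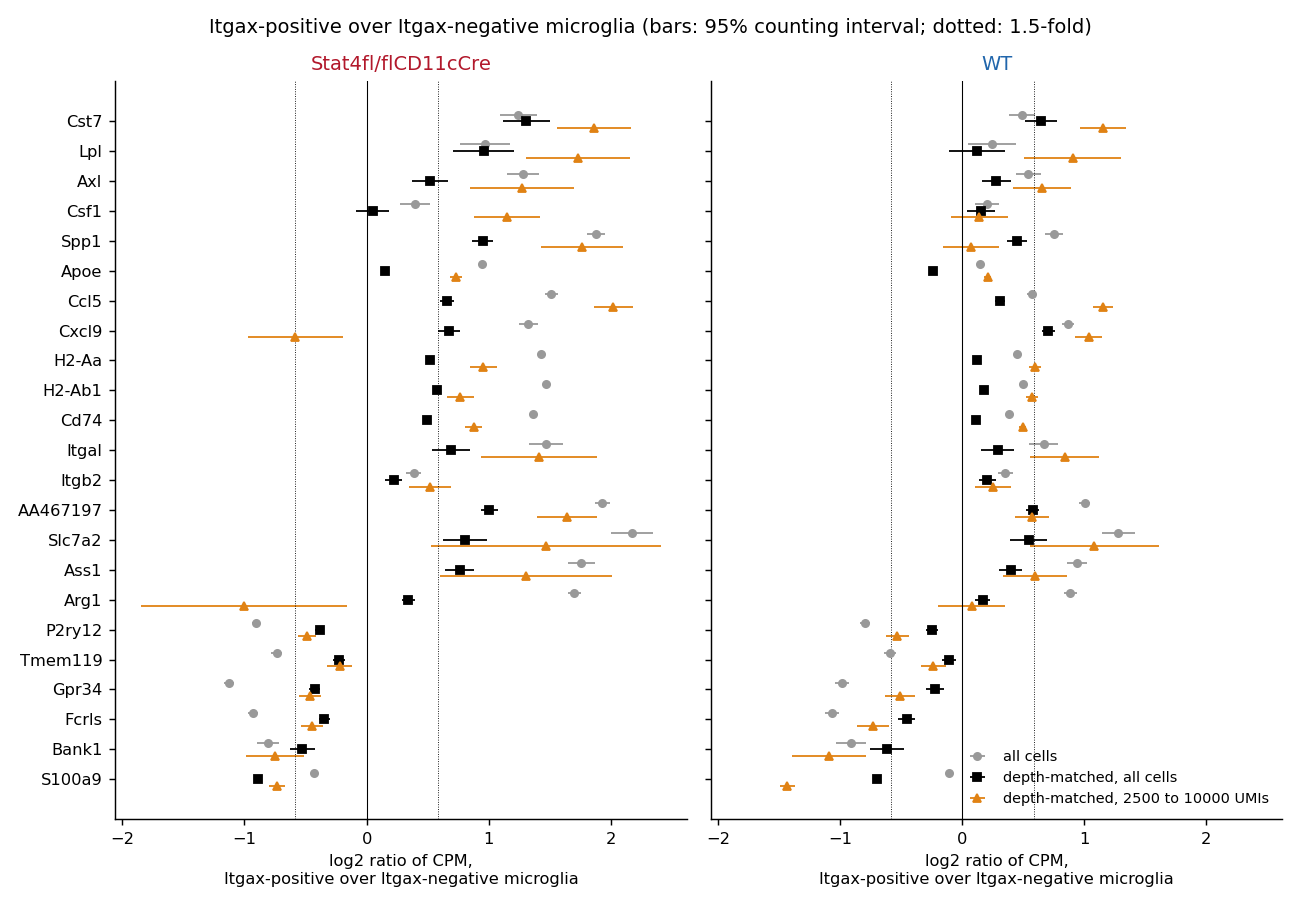
Log2 ratio of CPM, Itgax-positive over Itgax-negative microglia, for 23 genes (rows) in Stat4fl/flCD11cCre (left) and WT (right), over all cells (grey circles), with Itgax-negative cells matched in depth (black squares) and the same within cells of 2500 to 10000 UMIs (orange triangles); bars are 95% counting intervals and dotted lines 1.5-fold. Cst7 lies to the right of 1.5-fold in both libraries when matched in depth (log2 1.31 and 0.65), while Arg1 lies there over all cells only (log2 1.70 and 0.89); Arg1 in the middle range of Stat4fl/flCD11cCre did not pass the filter on low values.

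Several MHC class II genes, which present antigen to helper T cells, were higher in Itgax-positive cells in the middle range of depth in both libraries, and over all cells in Stat4fl/flCD11cCre. Of 13 MHC class II genes 10 were tested over all cells, of which 7 were higher in Stat4fl/flCD11cCre (median log2 1.02) and 0 in WT (median 0.31), where the background of higher calls was 1.5%. Matched in depth over all cells, 1 of 10 was higher in Stat4fl/flCD11cCre (H2-Oa, a chain of the class II editor H2-O) and 0 in WT, and the medians were 0.51 and 0.12. In cells of 2500 to 10000 UMIs 4 of 9 and 4 of 11 were higher, with medians of 0.57 and 0.51. Of all tested genes of that range 3.78% and 0.835% were called higher. H2-Aa, the alpha chain of the class II molecule I-A, was there at 686 against 353 CPM in Stat4fl/flCD11cCre (log2 0.96) and at 2360 against 1559 CPM in WT (log2 0.60). Thinned to 2500 UMIs, 33.1% of Itgax-positive against 13.3% of Itgax-negative cells of that range had an H2-Aa UMI in Stat4fl/flCD11cCre, and 86.0% against 66.8% in WT. Cd74, the invariant chain that escorts class II molecules, was at 1951 against 1063 CPM (log2 0.88) and 7197 against 5107 CPM (log2 0.49, not called). In the deepest cells the H2-Aa ratio was small, at log2 0.42 in Stat4fl/flCD11cCre and 0.03 (-0.00 to 0.06) in WT, while the Itgax-negative cells themselves had 1893 and 2630 CPM. The cells were sorted on surface MHC class II and CD11c, so these RNA levels are those of sorted cells.

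MHC class I and interferon genes were called higher in the middle range of Stat4fl/flCD11cCre and hardly at all in that of WT. Over all tested genes of that range 3.78% were called higher in Stat4fl/flCD11cCre and 0.835% in WT, so the libraries also differed outside these lists. At 2500 to 10000 UMIs 9 of 16 MHC class I genes were higher in Stat4fl/flCD11cCre (median log2 0.62) and 0 of 16 in WT (median 0.18). Of the genes induced by type I interferon 12 of 18 were higher in Stat4fl/flCD11cCre (median 0.73) and 0 of 23 in WT (median 0.03). Isg15, a ubiquitin-like interferon product, was at 174 against 75.3 CPM (log2 1.21, with 19.5% of the Itgax-positive UMIs in 1 cell) in Stat4fl/flCD11cCre and at 260 against 232 CPM (log2 0.17) in WT. Of the genes induced by interferon-gamma 9 of 16 were higher and 1 lower in Stat4fl/flCD11cCre (median 0.69), and 1 of 20 was higher in WT (median 0.08). The one higher in WT was Cxcl9, a chemokine for T cells, at 576 against 281 CPM (log2 1.04), and it was the one lower in Stat4fl/flCD11cCre, at 52.2 against 78.3 CPM (log2 -0.59, with 26.3% of the Itgax-positive UMIs in 1 cell). Matched in depth over all cells, Cxcl9 was higher in both, with log2 ratios of 0.67 and 0.71, and 0 of 16 MHC class I genes, 0 of 22 and 0 of 24 type I interferon genes were called in Stat4fl/flCD11cCre and WT. The difference of these contrasts between the 2 libraries was not tested, since each library is 1 sample.

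Among chemokines, Ccl5, which draws T cells, was at 430 against 106 CPM (log2 2.02, with 29.6% of the Itgax-positive UMIs in 1 cell) in the middle range of Stat4fl/flCD11cCre and at 1015 against 457 CPM (log2 1.15) in that of WT. Cxcl16, a membrane-bound chemokine, was at 141 against 75.5 CPM (log2 0.90) and 261 against 173 CPM (log2 0.59). Of the tested chemokines 6 of 11 were higher and 1 lower in Stat4fl/flCD11cCre, and 4 of 13 were higher and 1 lower in WT. Of all tested genes of that range 3.78% and 0.835% were called higher. Il2rg, the common gamma chain of cytokine receptors, was at 45.8 against 15.1 CPM (log2 1.60, with 18% of the Itgax-positive UMIs in 1 cell) and 119 against 65.0 CPM (log2 0.87). Ccl5 and Il2rg are also expressed by NK cells, whose 8 markers were all found in the Itgax-positive cells of that range in Stat4fl/flCD11cCre, at 199 against 18.6 CPM in sum (0 to 156 UMIs per 10000 in single Itgax-positive cells). In WT 3 of the 8 were found, at 3.33 against 22.8 CPM, with Klrb1c, Klre1, Klra8, Eomes and Klri2 at 0. Their part in these 2 genes was not tested.

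Of 13 integrin genes, Itgal was the one called in the same direction in both libraries in the middle range. It encodes CD11a, which shares the beta chain with CD11c, and was at 42.1 against 15.8 CPM (log2 1.41) in Stat4fl/flCD11cCre and at 81.1 against 45.4 CPM (log2 0.84) in WT. Itgb2, the beta chain itself, had depth-matched log2 ratios of 0.22 and 0.21 and was not called. Itgam, the gene of CD11b, lay near 0 with -0.12 and 0.03. The rest of the list is given by its counts: in the middle range 3 of 10 tested integrins were higher in Stat4fl/flCD11cCre and 1 of 10 in WT, with medians of 0.02 and -0.07. Of all tested genes of that range 3.78% and 0.835% were called higher.

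Among the genes with the highest ratios over all cells were genes of arginine use and of complement. Slc7a2, a transporter of cationic amino acids, was at 59.8 against 13.3 CPM (log2 2.17) in Stat4fl/flCD11cCre and at 76.1 against 31.4 CPM (log2 1.28) in WT, and matched in depth its log2 ratios were 0.81 and 0.54. Ass1, argininosuccinate synthase, was at 122 against 36.1 CPM (log2 1.76) and 180 against 93.8 CPM (log2 0.94), and 0.76 and 0.40 matched. AA467197, a gene of a small mitochondrial protein, had log2 ratios of 1.93 and 1.00 over all cells and 1.00 and 0.58 matched, and in WT it was -0.34 over all cells without those holding 2 genes of another type. Cfb, complement factor B, had 1.77 and 0.83 over all cells and 0.74 and 0.42 matched, and Cfp, properdin, 1.41 and 0.78 and then 0.36 and 0.19. Other genes named by their rank over all cells in both libraries were Runx2, Clec4n, Jaml, Slamf7, Ifi205, F10 and Bcl2a1d, whose log2 ratios ran from 0.92 for Jaml to 1.61 for Clec4n in Stat4fl/flCD11cCre and from 0.77 for Bcl2a1d to 0.95 for Runx2 in WT. Matched in depth, the ratios of Jaml were -0.03 and 0.35, and in the middle range those of F10 were -0.81 and 0.37. Shtn1 and Rai14, which code for cytoskeletal proteins, and Cd83, a surface marker of mature antigen-presenting cells, joined them after matching, with log2 ratios of 0.50 and 0.50, 0.43 and 0.40, and 0.37 and 0.35. Lgals3bp, a galectin-binding secreted protein, and H2-Q7, a class I gene, were named in the middle range, with log2 ratios of 1.08 and 0.58, and 0.94 and 0.56.

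Arg1, arginase and a marker of infiltrating macrophages, shows how depth enters these contrasts. It was at 554 against 170 CPM (log2 1.70) in Stat4fl/flCD11cCre and at 422 against 229 CPM (log2 0.89) in WT over all cells. Among Itgax-negative cells of Stat4fl/flCD11cCre its level was 4.05, 15.7, 207 and 563 CPM from the shallowest to the deepest of the 4 bins. Matched in depth the log2 ratios were 0.34 and 0.17, and in the middle range Arg1 was at 11 against 22 CPM in Stat4fl/flCD11cCre, under the filter on low values, and at 76.7 against 72.7 CPM in WT. Of the 10 monocyte and macrophage markers 7 were higher over all cells in Stat4fl/flCD11cCre and 3 in WT, and none was higher in either once matched in depth (median log2 -0.12 and -0.17). Genes of glycolysis and hypoxia behaved likewise, with 14 of 17 and 2 of 18 higher over all cells and 0 of 17 and 0 of 18 matched in depth.

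**Figure D3:**
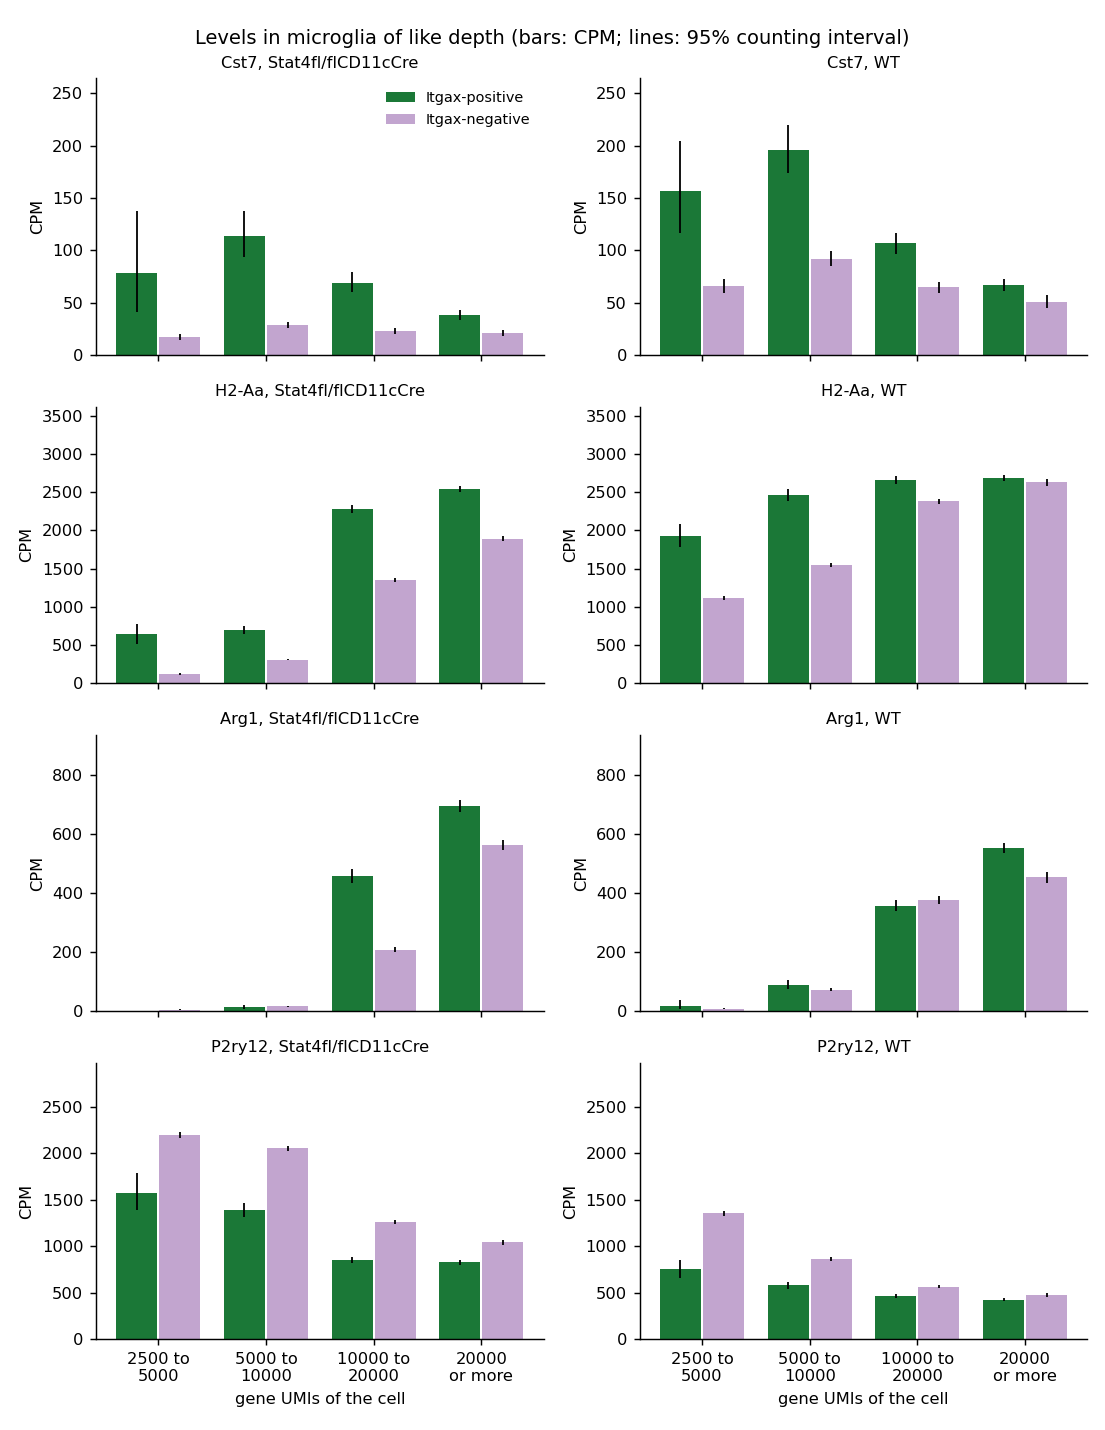
Levels (CPM) of Cst7, H2-Aa, Arg1 and P2ry12 in Itgax-positive (green) and Itgax-negative (mauve) microglia of the same depth range (gene UMIs of the cell), in Stat4fl/flCD11cCre (left) and WT (right); lines are exact 95% Poisson intervals. Cst7 is higher in Itgax-positive cells at each depth, P2ry12 is lower at each depth, and Arg1 is close to 0 in shallow cells of both kinds in Stat4fl/flCD11cCre, with 0 UMIs in the 38 Itgax-positive cells of the first range.

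Several resting microglial genes were lower in Itgax-positive cells over all depths, and none of the 9 gate genes or of 12 others was called lower once depth was matched. P2ry12, the ADP receptor of resting microglia and one of the gate genes, was at 895 against 1680.1 CPM (log2 -0.91) in Stat4fl/flCD11cCre and at 464 against 806 CPM (log2 -0.80) in WT over all cells, and matched in depth the log2 ratios were -0.38 and -0.24. Within the middle range they were -0.49 and -0.53, short of 1.5-fold. Of the 9 gate genes 8 were lower over all cells in Stat4fl/flCD11cCre and 6 in WT, and none when matched in depth (medians -0.32 and -0.13). The gate asked for these genes, so a cell with fewer of them had less chance to be a member. Of 12 microglial genes outside the gate 9 and 2 were lower over all cells and none when matched in depth (medians -0.28 and -0.09). Fcrls, an Fc receptor-like gene of mouse microglia, was at 579 against 1104 CPM (log2 -0.93) and 211 against 441 CPM (log2 -1.07), and -0.35 and -0.45 matched. Ltc4s, leukotriene C4 synthase, had log2 ratios of -1.10 and -1.0 over all cells and -0.60 and -0.84 in the middle range. The other genes named as lowest in both libraries over all cells were Ecscr, Csmd3, Hpgd, Bank1, Dlc1, Agmo, Cst3 and Fhit, with log2 ratios in Stat4fl/flCD11cCre from -0.98 for Hpgd to -0.72 for Fhit. Bank1, a scaffold protein known from B cells, was the one of them whose depth-matched ratio in WT was past 1.5-fold, at 53.3 against 81.6 CPM (log2 -0.62), and it was -0.53 in Stat4fl/flCD11cCre. Dlc1 was the one past it in Stat4fl/flCD11cCre, at 50.2 against 77.4 CPM (log2 -0.62), and it was -0.47 in WT.

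Several neutrophil marker genes were lower in Itgax-positive cells after depth matching. Of 9 tested neutrophil markers 6 were lower in each library (medians -0.68 and -0.71), although their median level per 10000 UMIs was similar, at 4.15 in Itgax-positive against 3.99 in Itgax-negative cells of Stat4fl/flCD11cCre and 4.00 against 3.66 in WT. S100a9, a calcium-binding alarmin, was at 2521 against 4677 CPM (log2 -0.89) and 2682 against 4356 CPM (log2 -0.70). Camp, the cathelicidin of neutrophil granules, was at 62.6 against 261 CPM (log2 -2.06) and 76.6 against 255 CPM (log2 -1.73), with 47.3% and 21.8% of the Itgax-positive UMIs in 1 cell. In the middle range Camp was at 7.32 against 49.3 CPM in Stat4fl/flCD11cCre, but at 62.2 against 27.2 CPM in WT, where 42.9% of the Itgax-positive UMIs were in 1 cell. Ltf, Ngp, Wfdc21, Lcn2, S100a8, Ifitm6 and Mmp8, with Bank1, were the other genes named as lowest after matching. The ratio of Ngp in Stat4fl/flCD11cCre was 0.91 over all cells without those holding 2 genes of another type (-0.68 with them). The highest single Itgax-negative cells held 4147 and 3705 neutrophil marker UMIs per 10000, so a few cells carry these sums, and their part in the contrast was not tested.

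The other lists are given by their counts in the middle range of depth, where 3.78% of all tested genes were called higher in Stat4fl/flCD11cCre and 0.835% in WT. Of lysosomal genes 1 of 19 was higher in Stat4fl/flCD11cCre (Cd63, a membrane protein of lysosomes) and 0 of 19 in WT, and both medians were 0.23. Of lipid-handling genes 4 of 10 were higher in Stat4fl/flCD11cCre and 3 of 10 in WT (medians 0.39 and 0.35). Of cytokine genes 5 of 10 and 0 of 10 were higher (medians 0.50 and -0.09), of costimulatory genes 2 of 7 and 0 of 7, and of complement genes 2 of 9 and 0 of 11. Of trophic factors 3 of 9 were higher and 1 lower in Stat4fl/flCD11cCre, and 0 higher and 1 of 9 lower in WT. Innate immune receptors had 5 of 17 higher and 1 lower in Stat4fl/flCD11cCre and 1 of 17 lower in WT, and myeloid transcription factors had none of 14 and none of 15 called. None of the 4 tested proliferation genes was called in either library, in a gate that had left out cells with Top2a or Mki67. Of 22 genes of dissociation stress, which handling can induce, 1 was higher and 1 lower in Stat4fl/flCD11cCre and 1 was higher in WT.

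Itgax-positive cells varied with the number of Itgax UMIs. Of the 568 cells of Stat4fl/flCD11cCre 362 had 1 UMI, 105 had 2 and 101 had 3 or more, with medians of 13491.5, 16981 and 23112 UMIs in all. Of the 788 cells of WT 534 had 1, 144 had 2 and 110 had 3 or more, with medians of 11642, 14358 and 20863. The cells with 1 UMI, just inside the rule, were set against Itgax-negative cells of the same depth. For Cst7 the log2 ratios with 1, 2 and 3 or more Itgax UMIs were 1.20, 0.94 and 1.81 in Stat4fl/flCD11cCre and 0.51, 0.79 and 0.84 in WT. For Slc7a2 they were 0.48, 0.97 and 1.28, and 0.31, 0.37 and 1.05. Spp1 had 0.62, 0.46 and 1.79, and 0.00, 0.55 and 1.33. In all 3 genes cells with 3 or more Itgax UMIs had the highest ratio. H2-Aa had 0.46, 0.53 and 0.68, and 0.10, 0.14 and 0.22, and P2ry12 -0.36, -0.40 and -0.53, and -0.27, -0.20 and -0.43.

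The other edge of the rule is the number of gate genes. Of the Itgax-positive cells that met the rule 266 in Stat4fl/flCD11cCre and 210 in WT had all 9 gate genes, and 14 and 31 had 3. Just outside it, 73 and 52 Itgax-positive cells had 2 gate genes. Cst7 was at 81.8 CPM with 3 gate genes and 17.2 CPM with 2 in Stat4fl/flCD11cCre, and at 59.5 and 40.7 CPM in WT, and Arg1 at 1176 and 1399 CPM in Stat4fl/flCD11cCre and at 332 and 1161 CPM in WT. Cells with 9 gate genes were the deepest, with medians of 20425 and 23116.5 UMIs.

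The genotypes were then compared within Itgax-positive microglia. Of 5800 tested genes 157 (2.71%) were higher and 127 (2.19%) lower in Stat4fl/flCD11cCre than in WT, with a median log2 ratio over all tested genes of 0.07. In Itgax-negative cells 329 of 5957 (5.52%) were higher and 362 (6.08%) lower, and the median was 0.12. The 2 sets of cells share libraries, so the values stand side by side and are not 2 pieces of evidence. In cells of 2500 to 10000 UMIs, where the median depth of Itgax-positive cells was nearly the same in both genotypes, 754 of 5854 genes (12.9%) were higher and 382 (6.53%) lower. Itgax itself, which the rule fixes in part, was at 95.4 CPM in Itgax-positive cells of Stat4fl/flCD11cCre and 96.0 in those of WT.

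Interferon-induced genes were lower in Itgax-positive microglia of Stat4fl/flCD11cCre. Of 21 tested interferon-gamma genes 19 were lower and 0 higher (median log2 -0.88), and in cells of 2500 to 10000 UMIs 13 of 19 were lower (median -0.95). Iigp1, an immunity-related GTPase, was at 93.7 CPM in Stat4fl/flCD11cCre against 247 in WT (log2 -1.40, interval -1.5 to -1.29), and Gbp4, a guanylate-binding protein, at 20.3 against 56.0 CPM (log2 -1.46). Cxcl9 was at 216 against 528 CPM (log2 -1.29), Cxcl10, a chemokine for the same receptor, at 234 against 496 CPM (log2 -1.08), and Nos2, the inducible nitric oxide synthase, at 17.1 against 41.2 CPM (log2 -1.27). Of 24 tested type I interferon genes 17 were lower (median -0.71), and 16 of 22 in the middle range (median -0.81). Of 12 tested chemokines 4 were lower over all Itgax-positive cells (median -0.37), and of 16 MHC class I genes 6 were lower (median -0.55), with 13 of 16 lower in the middle range (median -0.85). In Itgax-negative cells the medians of both interferon lists were further below 0, at -1.34 and -1.08 over all cells and -1.77 and -1.77 in the middle range. The difference between Itgax-positive and Itgax-negative cells was not tested.

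MHC class II genes differed little between the genotypes in Itgax-positive cells of all depths. There 2 of 10 were lower (median -0.29), with H2-Aa at 2272 CPM in Stat4fl/flCD11cCre against 2629 in WT (log2 -0.21). In cells of 2500 to 10000 UMIs 9 of 10 were lower (median -1.36), H2-Aa was at 686 against 2360 CPM (log2 -1.78), and Ciita, the regulator of class II transcription, at 10.1 against 74.5 CPM (log2 -2.89). Itgax-negative cells had 9 of 10 lower in both settings (medians -1.01 and -1.75), with H2-Aa at 844 against 1925 CPM (log2 -1.19) over all cells. The genotype ratio in Itgax-positive cells therefore depended on the depth of the cells taken. The summed monocyte and macrophage markers moved with it: in the middle range they were at 480.5 CPM in Stat4fl/flCD11cCre against 1703 in WT, and 8 of 8 tested were lower, while over all cells they were at 3642 against 4211 CPM and 2 of 10 were lower. Their part in these differences was not tested.

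Several resting microglial genes were higher in Itgax-positive cells of Stat4fl/flCD11cCre, and their sums were higher in its Itgax-negative cells too. The 9 gate genes, which the rule asked for, summed to 4286 against 2918 CPM in Itgax-positive and 7342 against 4346 CPM in Itgax-negative cells. The 12 genes outside the gate summed to 11433 against 8651 CPM and 17952 against 12021 CPM. P2ry12 and Gpr34 below are gate genes. P2ry12 was at 895 CPM against 464 in WT (log2 0.95, interval 0.90 to 1.00), Gpr34, a lysophospholipid receptor, at 504 against 218 CPM (log2 1.21), and Fcrls at 579 against 211 CPM (log2 1.46). Of the 9 gate genes 5 were higher (median 0.61) and of 12 microglial genes outside the gate 4 were higher (median 0.42), with 6 of 9 and 7 of 12 in the middle range. Sparc (log2 0.34), Olfml3 (0.37) and Tmem119 (0.35) were not past 1.5-fold over all cells, and Crybb1 was at -0.08 (-0.16 to 0.01). Genes named as highest by rank included Plcb4, Fcrls, Ecscr, Gzma, Csmd3, Fhit, Hpgd, Fscn1 and Plxna4. Plcb4, a phospholipase C, was at 47.0 CPM against 6.69 in WT (log2 2.81) and in Itgax-negative cells at 18.3 against 5.49 CPM (log2 1.74). Gzma, a granzyme of killer cells, was at 61.6 against 23.7 CPM (log2 1.38), with 18.3% and 52.1% of the UMIs in 1 cell, and its log2 ratio was -0.11 without the cells of the highest doublet scores.

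Disease-associated genes as a list did not separate the genotypes over all Itgax-positive cells. Of 21 tested 2 were higher and 1 lower (median 0.09, against 0.07 over all genes), where 2.71% of all tested genes were higher and 2.19% lower. In the middle range 2 were higher and 7 lower (median 0.13, against 0.15), where 12.9% of all tested genes were higher and 6.53% lower. Cst7 was the one lower over all cells, at 54.3 CPM in Stat4fl/flCD11cCre against 96.3 in WT (log2 -0.83), and it was also lower in Itgax-negative cells, at 23 against 68.6 CPM (log2 -1.58). Fabp5, a fatty acid carrier, was higher over all cells at 449 against 244 CPM (log2 0.88) and lower in the middle range at 44.8 against 125 CPM (log2 -1.48). Csf1 was at 72.0 against 102 CPM (log2 -0.50), and Spp1 at 268 against 218 CPM (log2 0.30, with 25.4% of the UMIs of Stat4fl/flCD11cCre in 1 cell).

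The genes named as lowest in Itgax-positive cells of Stat4fl/flCD11cCre also included Ttr, Enpp2, Upp1 and Gbp5. Ttr and Enpp2 are transcripts of choroid plexus epithelium. Ttr was at 6.54 CPM in Stat4fl/flCD11cCre against 1089 in WT, and 24.9% of the WT UMIs were in 1 cell. Upp1, uridine phosphorylase, was at 29.7 against 73.7 CPM (log2 -1.31). In the middle range the ranks named, among others, Gzma, Adamts16, Sncaip, Fcrls, Ecscr, Csmd3, Klf12, G0s2 and Hpgd as highest and Saa3, Cxcl9, Ttr, Cfb, Camp, Ly6a, F10, Ciita, Ly6i and Chil3 as lowest, and Saa3, Camp, Ly6i and Chil3 of these are monocyte, macrophage or neutrophil markers of the fixed lists.

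**Figure D4:**
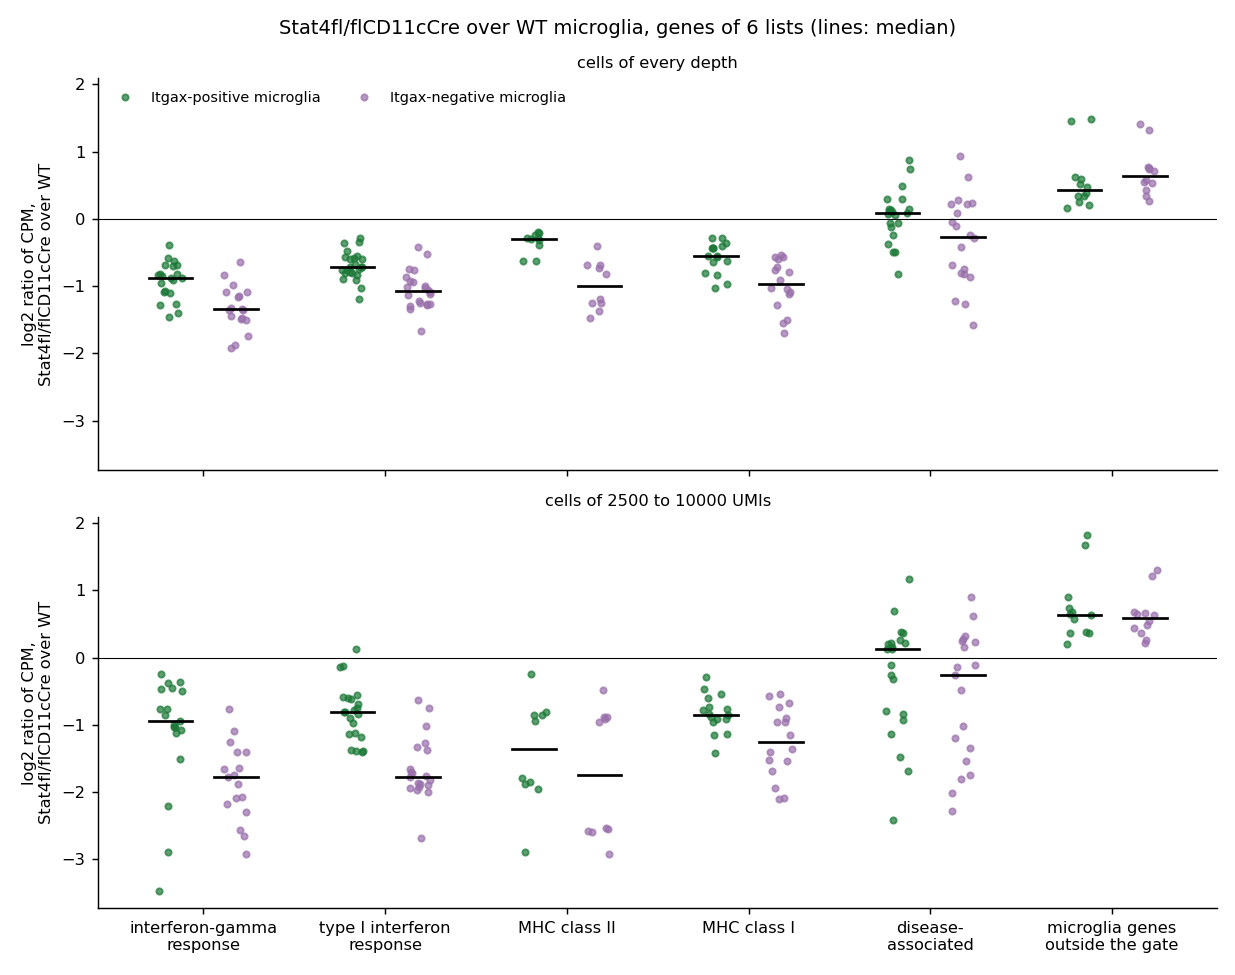
Log2 ratio of CPM, Stat4fl/flCD11cCre over WT, of each tested gene (point) of 6 lists in Itgax-positive (green) and Itgax-negative (purple) microglia, over cells of every depth (top) and of 2500 to 10000 UMIs (bottom); lines are medians. The medians of the interferon-gamma and type I interferon lists lie below 0 in all 4 settings, and the MHC class II median of Itgax-positive cells is -0.29 over every depth and -1.36 in the middle range.

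Stat4, the gene floxed in the strain, was at a low level in these cells. It had 163 UMIs in Itgax-positive cells of Stat4fl/flCD11cCre and 200 in those of WT, which are 15.7 and 15.6 CPM (log2 0.01, interval -0.30 to 0.32). It was under the filter on low values, and 14.1% and 5.0% of the UMIs were in 1 cell. In Itgax-negative cells it was at 7.74 and 11.4 CPM. Counts are per gene and do not resolve the floxed exons, so these levels do not check the deletion. Of the receptors whose signals STAT4 carries, Il12rb1 was at 2.50 and 5.52 CPM and Il12rb2 at 5.29 and 6.15 CPM in Itgax-positive cells of Stat4fl/flCD11cCre and WT. Il23r had 0 UMIs in Stat4fl/flCD11cCre and 3 in WT. In cells thinned to 2500 UMIs, 0 of 567 had an Il23r UMI in Stat4fl/flCD11cCre, which allows a share of cells with a UMI at that depth of up to 0.529% and does not limit the share that express the gene.

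The antibody tags are a readout that the rule did not use. Over all cells the median CD11b tag count was 1145 in Itgax-positive against 397 in Itgax-negative cells of Stat4fl/flCD11cCre and 1218 against 374 in WT, and the CD172a tag had 425.5 against 193 and 367.5 against 124. At 2500 to 10000 UMIs the CD11b medians were 404 against 363 and 408 against 327, and the CD172a medians 183 against 177 and 122 against 106, so most of the difference went with depth. Tag medians were not reweighted by depth. At 2500 to 5000 UMIs CD11b had 313.5 against 338 and 273 against 292, and CD172a 142.5 against 169 and 86 against 96. At 5000 to 10000 UMIs CD11b had 459 against 406.5 and 503 against 437, and CD172a 202.5 against 190 and 162.5 against 138. The tag for MERTK, a receptor for dying cells, had 58.5 against 61 and 30 against 31 at 2500 to 10000 UMIs. The tag for CD317, the interferon-induced protein BST2, had 32 against 26 in Stat4fl/flCD11cCre and 42 against 28 in WT. The XCR1 tag, a marker of one kind of dendritic cell, had 29.5 against 29 and 16 against 15. T cells gave a background of 24 and 35 counts of CD11b, 97 and 44 of CD172a, 34 and 13 of MERTK, 26 and 12 of XCR1 and 22 and 14 of CD317 per cell in Stat4fl/flCD11cCre and WT. In the middle range XCR1 was thus near the T cell value and CD11b far above it. In Itgax-positive cells of 10000 or more UMIs the XCR1 medians were 67 and 59, against 48 and 46 in Itgax-negative cells of that depth, all above the T cell values.

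**Figure D5:**
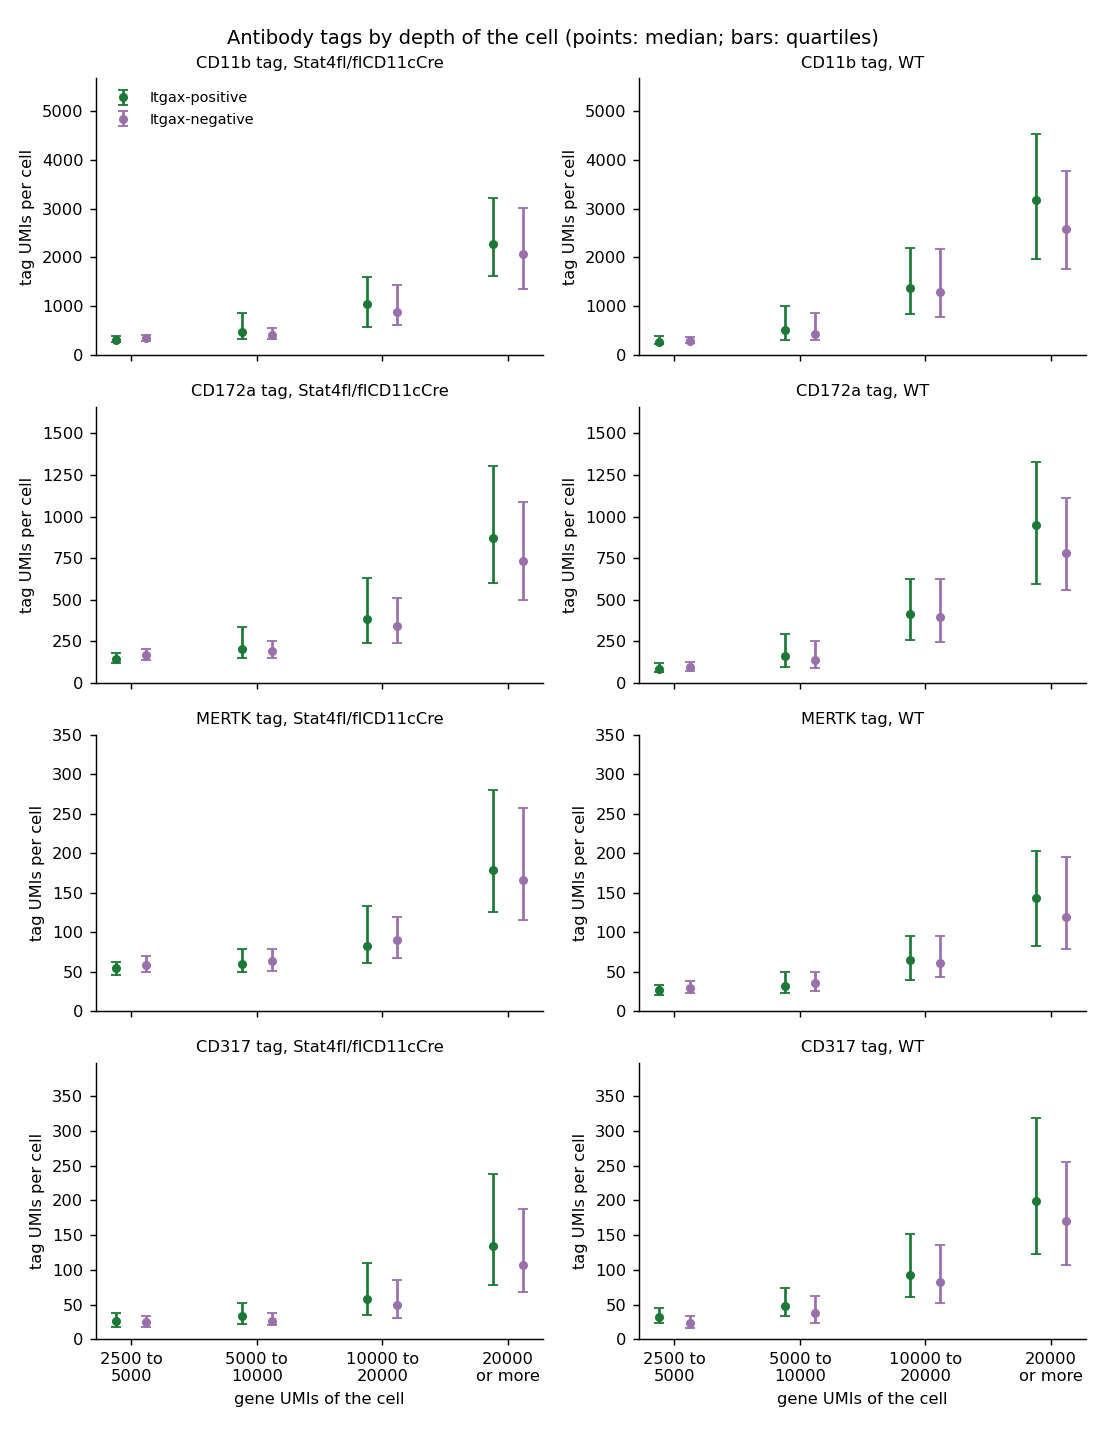
Antibody tag counts per cell (UMIs) of CD11b, CD172a, MERTK and CD317 against the gene UMIs of the cell, in Itgax-positive (green) and Itgax-negative (purple) microglia of Stat4fl/flCD11cCre (left) and WT (right); points are medians and bars quartiles. The counts are higher in deeper cells of both kinds, and within a depth range the quartiles of Itgax-positive and Itgax-negative cells overlap.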

How the data were processed

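Gene and antibody-tag UMI counts per droplet barcode were deposited by the authors as filtered 10x matrices of 32285 genes and 5 tags for 2 libraries, made with Cell Ranger 7.0.0 on mm10, per the submitters' processing notes. Which annotation release was used, whether intronic reads were counted and whether doublets were removed is not stated there or in the labels. The libraries held 120221740 and 122975017 gene UMIs over 12534 and 13820 barcodes (median 6767 and 6228) in Stat4fl/flCD11cCre and WT. A total of 43 barcodes were in both libraries, none of them Itgax-positive microglia. Every column of per-sample values was mapped to a sample.

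Cells and members were chosen by the rule in the report. The members, markers and gene lists were chosen with earlier results of these data known. Counts were summed over the cells of a group and given as CPM of all gene UMIs. Ratios carry an exact binomial interval conditional on both sums, or a delta-method interval where Itgax-negative cells were reweighted by depth. These intervals and the limits for a count of 0 (3 counts of the total) cover counting error only, since cells of 1 library are not replicates. Shares were compared after thinning each cell to 2500 UMIs, with exact Clopper-Pearson intervals. The scripts were tested on simulated data. Named genes were the 15 highest and 10 lowest (by genotype, 10 and 10) ranked by the interval bound nearest to 1, in the same direction in both libraries for Itgax-positive over Itgax-negative. Itgax, gate genes, Top2a, Mki67, Cd3e, mitochondrial, ribosomal, haemoglobin, immunoglobulin, T cell receptor, sex-linked and predicted genes were left out of the ranking. A few genes that the rule names are not reported here. The Scrublet threshold set automatically called 1 and 0 cells, which is no working doublet call, so no cell was removed and the 10% highest scores were left out only as an alternative. Ranges of 2500 to 10000 UMIs and of 10000 or more were chosen after seeing the data. Python 3.11.15, numpy 2.4.6, scipy 1.17.1, pandas 2.3.3, scanpy 1.11.5 and matplotlib 3.10.9 were used.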

Additional observations from a re-analysis of the deposited data

Results flagged for a closer look

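Ttr, the transthyretin transcript of choroid plexus epithelium, differed in opposite directions between the libraries. In Stat4fl/flCD11cCre it was at 6.54 CPM in Itgax-positive against 218 CPM in Itgax-negative microglia (log2 -5.06), and in WT at 1089 against 706 CPM (log2 0.63). The log2 ratios differed by -5.69, Stat4fl/flCD11cCre minus WT, and with 1 library per genotype the difference was not tested. In WT 24.9% of the Ttr UMIs of Itgax-positive cells were in 1 cell. In cells of 2500 to 10000 UMIs the log2 ratios were -4.39 in Stat4fl/flCD11cCre and -3.28 in WT.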

How the results depend on the processing

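No paired analysis was possible because each genotype is 1 library. For the same reason no library was left out. Counts of genes called depended on the filter, the depth of the cells and the doublet measures, and the causes were not tested.

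Itgax-positive over Itgax-negative, Stat4fl/flCD11cCre: the 335 higher genes became 132 at a mean of 100 CPM or more, 1271 without a filter and 26 when matched in depth. The 244 lower genes became 98, 1142 and 18 under the same settings, 457 with 2 or more Itgax UMIs, 119 with median-of-ratios scaling, 437 after thinning and 149 at 2500 to 10000 UMIs. In WT the 86 higher and 64 lower genes became 152 and 127 with 2 or more Itgax UMIs, 187 and 327 without cells holding 2 genes of another type, 259 and 242 as means of per-cell CPM, 259 and 309 after thinning, 26 and 25 at 100 CPM, 606 and 710 without a filter, 12 and 13 when matched in depth, and 48 and 116 at 2500 to 10000 UMIs. Without the 10% highest Scrublet scores 135 were higher in WT.

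Stat4fl/flCD11cCre over WT in Itgax-positive cells: the 157 higher and 127 lower genes became 441 and 244 without cells holding 2 genes of another type, 51 and 56 at 100 CPM, 853 and 745 without a filter, and 754 and 382 at 2500 to 10000 UMIs, and the higher ones 97 with median-of-ratios scaling and 357 after thinning. The ratio of Itgax shares, 0.514, was 0.411 after thinning to 1500 UMIs, 0.361 with 2 or more Itgax UMIs, 0.304 without cells holding 2 genes of another type, 0.351 at 2500 to 10000 UMIs and 0.926 at 10000 or more, where the shares expected over all thinning draws were 5.98% and 7.88%.

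For 98 named results 653 of 1238 alternative values stayed within the counting interval, 577 moved and 8 changed sign. The values that stayed include 98 at 100 CPM or more and 98 without a filter. Those settings change which genes are counted and not their ratios, so these values could not move. The 8 values that changed sign were log2 ratios of Itgax-positive over Itgax-negative for AA467197 in WT (-0.34) and Cxcl9 (-0.37) and Ngp (0.91) in Stat4fl/flCD11cCre without cells holding 2 genes of another type, Arg1 (-1.0), Cxcl9 (-0.59) and F10 (-0.81) at 2500 to 10000 UMIs and Jaml (-0.025) matched in depth in Stat4fl/flCD11cCre, and Gzma between genotypes (-0.11) without the highest Scrublet scores. Genes under 25 CPM are limited by counts, and Stat4 and its receptors are among them.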

Other observations

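Immunoglobulin transcripts of Itgax-positive microglia came mostly from single cells. Jchain, the joining chain of secreted antibodies, had 1427 UMIs in Itgax-positive cells of Stat4fl/flCD11cCre, of which 99.4% were in 1 cell, and 39 in Itgax-negative cells, with at most 2 in a cell. Igha, the IgA heavy chain, had 3502 UMIs in Itgax-positive cells of Stat4fl/flCD11cCre and 3724 in those of WT, with 99.4% and 99.9% in 1 cell. Igkc, the kappa light chain, had 6234 and 19406 UMIs, with 96.0% and 50.2% in 1 cell. Ighm, the IgM heavy chain, was spread more evenly, with 1158 and 1252 UMIs in 390 and 432 cells, and at most 1.64% and 1.44% in 1 cell.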
